A study of Mus musculus with 16 samples.

Results

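Levels of 8 genes of the Notch pathway were followed across 16 RNA sequencing libraries of mouse fetal lung at embryonic day E14.5. The genes were taken as a fixed list of symbols, with the receptors Notch2 and Notch3, the ligands Jag1, Jag2, Dll1 and Dlk1, and the target genes Hes1 and Heyl. They are 8 of the 57180 genes in the deposited count files, and all 8 were among the 17276 genes that passed the filter on low counts. The 4 groups held 4 libraries each. They were C57BL/6J (B6) lungs whose dams received corn oil (controls), B6 lungs whose dams received BMS493, and the same pair of treatments in the A/J strain. BMS493 acts as an inverse agonist on each type of retinoic acid receptor, and it was given by mouth at 3.75 µg per g per day over E9.5 to E14.5. All fetuses were male per the design text. Litters are not named in the labels, so p-values measure the spread between these samples, which may share a dam.

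Notch signalling passes between neighbouring cells. A ligand of the Jagged or Delta-like family on one cell binds a Notch receptor on the next. The receptor is then cut by an ADAM protease and by gamma-secretase. The freed intracellular domain enters the nucleus, binds the DNA-binding protein RBPJ and turns on genes of the Hes and Hey families. In the developing lung the pathway is known for setting the balance of secretory, ciliated and neuroendocrine cells in the airway epithelium. It is also known for roles in arterial endothelium and in the mural cells around vessels.

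Levels are given as counts per 1e6 (CPM), computed here from the raw counts. A gene was called different at an adjusted p under 0.05, from edgeR's quasi-likelihood test fitted to all 16 libraries with Benjamini-Hochberg adjustment over 17276 genes. Every adjusted p below comes from that fit unless another tool is named. Libraries held between 15207539 and 24146224 counts in genes. Fragments with several matches made up 2.81% to 3.29% in B6 and 3.62% to 4.06% in A/J. The build named in the submitters' processing notes, GRCm39, is a genome of B6, so sequence differences of A/J from that reference occur in A/J fragments and not in B6 ones. The part of mapping to that genome in the strain results, those lower in A/J included, was not tested. Replicate 3 of the B6 BMS493 group stood apart from the other libraries on the second principal component, which held 7.29% of the variance. That group also varied most among its libraries. Its median SD of log2 CPM over all genes was 0.204, against 0.119 to 0.151 in the other groups. Nkx2-1, the transcription factor that marks lung epithelium, was between 161 and 312 CPM in every library. As a check on treatment, Cyp26b1, the retinoic acid hydroxylase, fell with BMS493 by 3.68 on the log2 scale in B6 (adjusted p = 2.51e-06) and by 4.24 in A/J (adjusted p = 8.22e-08). Dhrs3, a retinaldehyde reductase, fell by 1.31 (adjusted p = 8.94e-05) and by 2.07 (adjusted p = 2.39e-08).

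Per kb of exon, the level over all 16 libraries ran from 168 CPM per kb for Dlk1 to 1.40 for Dll1. Between them stood Notch3 (36.3), Notch2 (23.3), Hes1 (22.2), Heyl (14.1), Jag1 (8.11) and Jag2 (6.19). The ligand Dlk1 was thus the most abundant of the 8 per length and Dll1 the least. Dll1 also had the fewest raw counts, from 66 to 207 per library, and Dlk1 the most, from 13582 to 24676. Depth therefore limits Dll1 most.

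With BMS493 no member of the list was called in either strain, and with strain as the contrast 3 ligands and 1 target were called. Over all genes, calls for treatment were 0.423% in B6 and 0.486% in A/J. Calls for strain were 16.9% in controls and 20.0% with BMS493. Dll1, Jag2 and Heyl were lower in A/J than in B6, both in control lungs and in BMS493 lungs. Jag1 was higher in A/J in BMS493 lungs. Notch2, Notch3, Dlk1 and Hes1 were not called in any of the 4 pairwise contrasts.

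**Figure D1:**
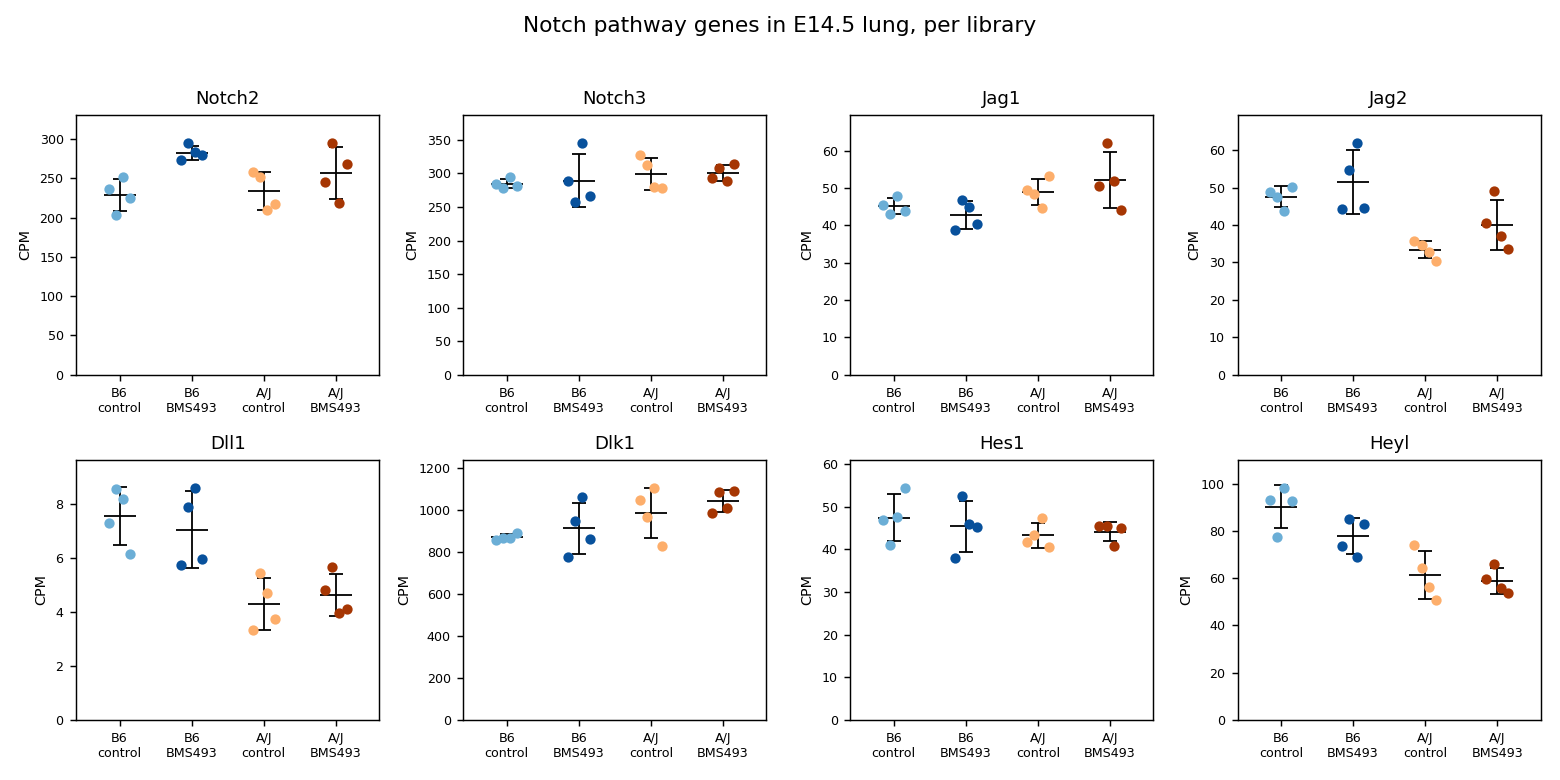
Level of each of the 8 genes in CPM (y axis, starting at 0) in the 4 groups (x axis). Each point is 1 library, and the bars give the mean ± SD over 4 libraries. Dll1 and Heyl were lower in all 8 A/J libraries than in the B6 libraries of the same treatment, while Notch3 overlapped between all groups.

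The receptors are taken first. Notch2 (ENSMUSG00000027878, chromosome 3) encodes a widely expressed receptor. It was at 236, 203, 252 and 225 CPM in B6 controls and at 274, 295, 283 and 279 CPM in B6 lungs with BMS493. All 4 BMS493 libraries of B6 were above all 4 controls. In A/J the control libraries were at 258, 251, 209.9 and 218 CPM and the BMS493 libraries at 246, 296, 219 and 268 CPM. These 2 A/J groups overlapped. Group means were 229 ± 20.4 and 283 ± 8.95 CPM in B6, and 234 ± 23.9 and 257 ± 32.6 CPM in A/J (SD, n = 4 each). The log2 difference with BMS493 was 0.30 in B6 (SE 0.08, 95% interval 0.13 to 0.47) and 0.13 in A/J (SE 0.08, interval -0.04 to 0.30). In B6 the unadjusted p was 0.00117 and the adjusted p was 0.135, so the gene was not called, and in A/J the adjusted p was 0.940. Without the filter on low counts Notch2 was called in B6, at 0.30 with an adjusted p of 0.00102. Within the libraries numbered 1 to 8 in the labels and within those numbered 9 to 16, the B6 difference in mean log2 CPM was 0.37 and 0.24. Averaged over the strains the difference was 0.22 (SE 0.06, adjusted p = 0.0606). That average did pass the threshold with DESeq2 (adjusted p = 0.0291), without the filter on low counts, with the second stranded column, and without A/J control replicate 1, B6 control replicate 3 or A/J BMS493 replicate 3. The Notch2 difference between the strains was 0.03 in controls (adjusted p = 0.842) and -0.14 with BMS493 (adjusted p = 0.264).

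Notch3 (ENSMUSG00000038146, chromosome 17) encodes the receptor best known from vascular smooth muscle and pericytes. In B6 it was at 284, 279, 294 and 281 CPM in controls and at 288, 257, 346 and 267 CPM with BMS493. In A/J it was at 327, 312, 279 and 278 CPM in controls and at 293, 308, 289 and 314 CPM with BMS493. The 346 CPM of B6 BMS493 replicate 3 was the highest of the 16, and every pair of neighbouring groups overlapped. Means were 285 ± 6.85, 289 ± 39.8, 299 ± 24.5 and 301 ± 12.1 CPM in that order (SD, n = 4 each). The 4 pairwise log2 differences lay between 0.01 and 0.07, with SE of 0.07 each and adjusted p from 0.562 to 1.00. The treatment difference had an interval of -0.13 to 0.18 in B6 and of -0.14 to 0.16 in A/J. Notch3 overlaps the gene Gm17276 on the opposite strand. Its counts on the 2 strands summed to 113% of the count without strand, so some of its fragments are missing from the column used.

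Among the ligands, Jag2 and Dll1 differed between the strains. RefSeq promoter windows on GRCm38.p6 are shown, 1 for each gene, from 250 bases before to 50 after the start, on the gene's strand from 5′ to 3′. Capitals mark AGGTCA, a half-site of the retinoic acid receptor, or TGGGAA, the core bound by RBPJ, each searched on both strands. The sequences are those of the reference genome, and A/J alleles were not read. Of the 8 genes 6 matched the RefSeq table, all but Hes1 and Heyl. Dll1 (chr17:15375774-15376073, minus strand) has AGGTCA with its first base at -109 from the start, and Jag2 (chr12:112929446-112929745, minus strand) has neither motif. Among 32851 windows of the same length, 16.3% held AGGTCA and 25.6% held TGGGAA. RefSeq lists another start for Dll1, whose window (chr17:15376883-15377182, minus strand) has neither motif and is not printed. Of the 7 windows of the 6 matched members, the printed Dll1 window alone held the first motif and none held the second. GC content was 62.7% in the Dll1 window and 86.0% in the Jag2 window.
Dll1: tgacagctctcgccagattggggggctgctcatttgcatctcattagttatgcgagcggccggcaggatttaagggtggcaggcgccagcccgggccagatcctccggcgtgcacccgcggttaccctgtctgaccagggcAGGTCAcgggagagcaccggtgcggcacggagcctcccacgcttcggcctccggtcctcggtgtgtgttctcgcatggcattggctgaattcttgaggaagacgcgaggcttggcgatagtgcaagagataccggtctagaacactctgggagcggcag
Jag2: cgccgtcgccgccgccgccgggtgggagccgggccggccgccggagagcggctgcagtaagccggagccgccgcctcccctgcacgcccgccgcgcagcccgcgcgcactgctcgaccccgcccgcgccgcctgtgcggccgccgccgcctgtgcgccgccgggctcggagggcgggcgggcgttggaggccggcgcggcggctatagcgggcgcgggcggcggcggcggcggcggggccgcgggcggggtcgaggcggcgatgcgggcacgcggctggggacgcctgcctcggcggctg

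Dll1 (ENSMUSG00000014773, chromosome 17) encodes a Delta-like ligand that activates receptors on neighbouring cells. It was at 7.32, 8.55, 8.21 and 6.16 CPM in B6 controls and at 3.33, 5.45, 4.69 and 3.74 CPM in A/J controls. With BMS493 it was at 5.76, 7.91, 8.61 and 5.97 CPM in B6 and at 4.82, 5.68, 3.95 and 4.13 CPM in A/J. All 8 A/J libraries were below all 8 B6 libraries, although the lowest B6 library (5.76) and the highest A/J library (5.68) were close. Means were 7.56 ± 1.07 and 4.30 ± 0.956 CPM in controls, and 7.06 ± 1.41 and 4.65 ± 0.783 CPM with BMS493 (SD, n = 4 each). Dll1 was lower in A/J by a log2 difference of -0.81 in controls (SE 0.18, 95% interval -1.18 to -0.44, adjusted p = 0.00197). With BMS493 it was -0.60 (SE 0.18, interval -0.97 to -0.23, adjusted p = 0.0185). The call in BMS493 lungs was lost with the second stranded column and without B6 BMS493 replicate 2 or 3 or A/J BMS493 replicate 3 or 4, at adjusted p of up to 0.0767. The treatment difference was -0.11 in B6 (SE 0.17, interval -0.47 to 0.25) and 0.11 in A/J (SE 0.18, interval -0.27 to 0.48). Dll1 overlaps A930024N18Rik on the opposite strand over 867 bases, and 16.1% of its 50-base windows also occur in another gene, chiefly that one. Unlike those of Notch3, the Dll1 counts on the 2 strands summed to 100% of the count without strand.

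Jag2 (ENSMUSG00000002799, chromosome 12) encodes a Jagged ligand. In controls it was at 48.8, 47.6, 43.6 and 50.2 CPM in B6 and at 35.8, 34.6, 32.9 and 30.4 CPM in A/J. These groups did not overlap. With BMS493 it was at 44.3, 54.8, 62.0 and 44.6 CPM in B6 and at 40.6, 49.0, 37.0 and 33.6 CPM in A/J. Here A/J replicate 2 was above B6 replicates 1 and 4. Means were 47.6 ± 2.84 and 33.4 ± 2.35 CPM in controls, and 51.4 ± 8.57 and 40.0 ± 6.63 CPM with BMS493 (SD, n = 4 each). Jag2 was lower in A/J by a log2 difference of -0.51 in controls (SE 0.11, 95% interval -0.73 to -0.28, adjusted p = 0.00171). In BMS493 lungs it was -0.36 (SE 0.11, interval -0.58 to -0.14, adjusted p = 0.0200). That second call was lost in 6 of 17 alternatives, among them leaving out B6 BMS493 replicate 3, the library with the highest Jag2 level, where the difference was -0.26 at an adjusted p of 0.0729. Leaving out B6 BMS493 replicate 2 or A/J BMS493 replicate 3 or 4 also lost it, at adjusted p of 0.0692, 0.0704 and 0.0866. With BMS493 the log2 difference was 0.11 in B6 (SE 0.11, adjusted p = 0.791) and 0.26 in A/J (SE 0.11, unadjusted p = 0.0247, adjusted p = 0.647). Without A/J BMS493 replicate 2, at 49.0 CPM, the A/J value was 0.15.

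Jag1 (ENSMUSG00000027276, chromosome 2), encodes the other Jagged ligand of the list. It was at 45.6, 43.2, 47.9 and 43.8 CPM in B6 controls and at 49.6, 48.4, 44.5 and 53.3 CPM in A/J controls. With BMS493 it was at 38.8, 46.8, 44.9 and 40.4 CPM in B6 and at 50.4, 62.2, 51.9 and 44.2 CPM in A/J. Both pairs of groups overlapped, the second through A/J replicate 4. Means were 45.1 ± 2.13 and 49.0 ± 3.59 CPM in controls, and 42.7 ± 3.75 and 52.2 ± 7.44 CPM with BMS493 (SD, n = 4 each). In BMS493 lungs Jag1 was higher in A/J by a log2 difference of 0.29 (SE 0.09, 95% interval 0.11 to 0.47, adjusted p = 0.0204). Without A/J BMS493 replicate 2, at 62.2 CPM, the difference was 0.19 at an adjusted p of 0.116. The call was also lost without B6 BMS493 replicate 1 (adjusted p = 0.0602) or replicate 4 (adjusted p = 0.0576), and when only the 8 libraries compared were fitted (adjusted p = 0.0737). In library numbers 1 to 8 and 9 to 16 taken apart it was 0.39 and 0.17. In controls the difference was 0.12 (SE 0.09, adjusted p = 0.408). The treatment difference was -0.08 in B6 (SE 0.09, adjusted p = 0.833) and 0.09 in A/J (SE 0.09, adjusted p = 0.993).

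Per kb of exon, the ratio of Jag1 to Jag2 lay between 0.865 and 1.31 in the 8 B6 libraries and between 1.48 and 2.09 in the 8 A/J libraries. The 2 strains did not overlap in this ratio. It was computed after the single genes had been seen and was given no test.

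Dlk1 (ENSMUSG00000040856, chromosome 12) encodes a transmembrane protein of the Delta-like family that lacks the domain by which the other ligands bind Notch. It is imprinted, with expression from the paternal allele. It was at 854, 865, 865 and 891 CPM in B6 controls and at 773, 945, 1061 and 861 CPM in B6 lungs with BMS493. In A/J it was at 1045, 966, 1104 and 829 CPM in controls and at 982, 1086, 1008 and 1088 CPM with BMS493. Neighbouring groups overlapped, and the B6 controls were the tightest. Means were 869 ± 15.7, 910.2 ± 123, 986 ± 119 and 1041 ± 54.0 CPM (SD, n = 4 each). The strain difference was 0.18 in controls (SE 0.08, unadjusted p = 0.0372, adjusted p = 0.141) and 0.19 with BMS493 (SE 0.08, unadjusted p = 0.0283, adjusted p = 0.107). In controls it passed the threshold without A/J control replicate 4 (0.26, adjusted p = 0.0274). With BMS493 it did so without B6 BMS493 replicate 3, the library that stood apart (0.27, adjusted p = 0.0192). The treatment difference was 0.07 in B6 and 0.08 in A/J (SE 0.08 each, adjusted p = 0.855 and 1.00).

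Of 13 other imprinted genes, 3 were called higher in A/J in controls, among them Peg3 and Plagl1, with a median log2 difference of 0.14 over the 13. In BMS493 lungs 4 were higher, among them Meg3 and Peg3, and 1 was lower, with a median of 0.19. Over all genes tested the medians were 0.0081 and 0.0032. Calls over all genes were 16.9% in controls and 20.0% with BMS493. Meg3, the long noncoding RNA made from the maternal allele of the imprinted cluster that holds Dlk1, was at 0.27 in controls (adjusted p = 0.0618) and at 0.58 with BMS493 (adjusted p = 0.000232). In liver and skeletal muscle Dlk1 is also expressed before birth. The 7 markers of each summed to at most 13.4 CPM and 5.98 CPM in any library. Of the 2 liver markers tested 1, the albumin gene Alb, was lower in A/J in controls (adjusted p = 0.0294), at 0.593 to 5.21 CPM in B6 and 0.114 to 0.319 CPM in A/J. The part of these tissues in the Dlk1 level was not tested.

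**Figure D2:**
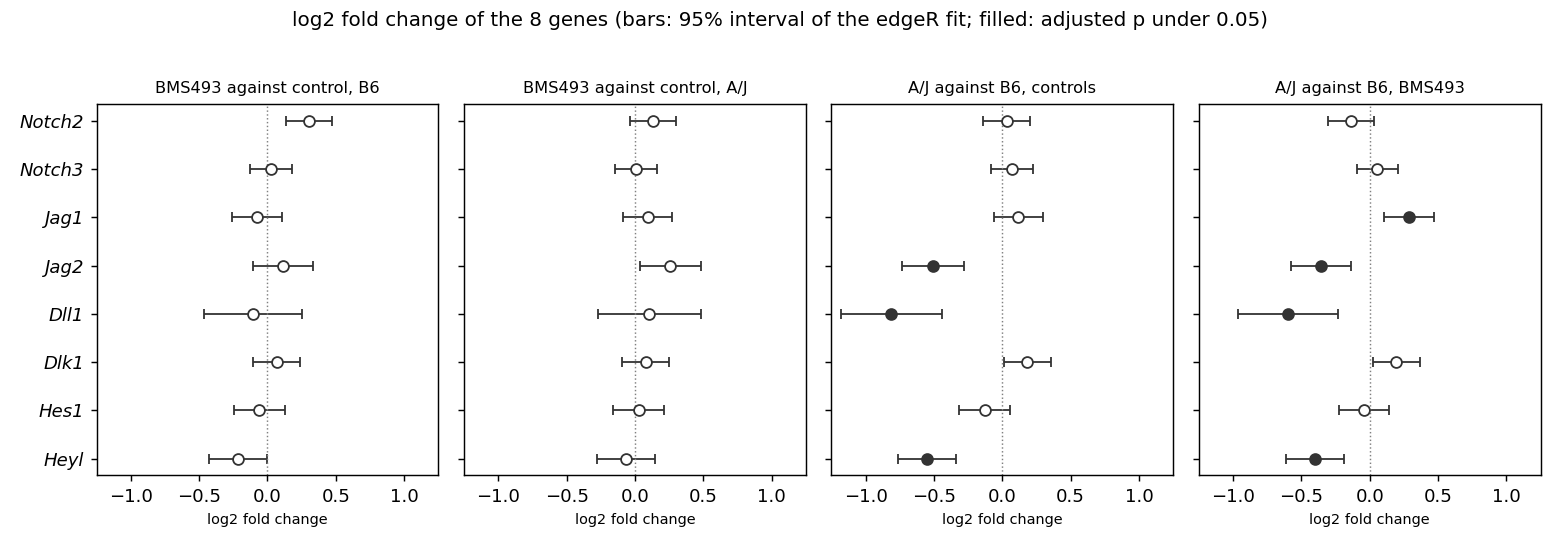
Log2 fold change of the 8 genes (x axis) for BMS493 against control in B6 and in A/J, and for A/J against B6 in controls and in BMS493 lungs. Points are estimates of the edgeR fit, bars are 95% intervals, and filled points have an adjusted p under 0.05. Filled points occur in the 2 strain panels only, 3 in controls and 4 with BMS493, where 16.9% and 20.0% of all genes were called.

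The target genes read out the pathway in the cells that receive the signal. Hes1 (ENSMUSG00000022528, chromosome 16) encodes a repressor of the basic helix-loop-helix family. It was at 47.0, 41.0, 47.5 and 54.5 CPM in B6 controls, at 37.9, 52.5, 46.1 and 45.3 CPM in B6 lungs with BMS493, and at 41.8, 43.5, 47.4 and 40.7 CPM in A/J controls. In A/J lungs with BMS493 it was at 45.5, 45.4, 40.8 and 45.1 CPM. All 4 groups overlapped. Means were 47.5 ± 5.53, 45.4 ± 5.97, 43.3 ± 2.92 and 44.2 ± 2.26 CPM (SD, n = 4 each). The 4 pairwise log2 differences lay between -0.13 and 0.03, with SE of 0.09 each and adjusted p from 0.372 to 1.00. The intervals of the treatment difference were -0.24 to 0.13 in B6 and -0.16 to 0.21 in A/J.

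Heyl (ENSMUSG00000032744, chromosome 4) encodes a Hey family repressor best known from vascular smooth muscle. In controls it was at 93.0, 77.4, 98.4 and 92.6 CPM in B6 and at 74.2, 64.4, 56.5 and 50.8 CPM in A/J. With BMS493 it was at 73.8, 85.1, 68.9 and 83.1 CPM in B6 and at 59.5, 66.3, 56.0 and 53.9 CPM in A/J. At each treatment every A/J library was below every B6 library. Means were 90.3 ± 9.03 and 61.5 ± 10.2 CPM in controls, and 77.7 ± 7.64 and 58.9 ± 5.42 CPM with BMS493 (SD, n = 4 each). Heyl was lower in A/J by a log2 difference of -0.55 in controls (SE 0.10, 95% interval -0.76 to -0.34, adjusted p = 0.000454). In BMS493 lungs it was -0.40 (SE 0.10, interval -0.61 to -0.19, adjusted p = 0.00707). With BMS493 the difference was -0.21 in B6 (SE 0.10, unadjusted p = 0.0459, adjusted p = 0.533) and -0.06 in A/J (SE 0.10, adjusted p = 1.00). The count ratio of Hes1 to Heyl lay between 0.483 and 0.668 in B6 and between 0.563 and 0.839 in A/J, and these ranges overlapped.

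Counted together for treatment, 0 of the 8 genes were called in B6, where 0.423% of all genes were, and 0 in A/J, where 0.486% were. At an unadjusted p under 0.05 stood 2 genes in B6 (Notch2 and Heyl) and 1 in A/J (Jag2), and DESeq2 called 0 in each. Over 17 alternatives the number at an unadjusted p under 0.05 lay between 1 and 2 in B6 and between 0 and 2 in A/J. It was 0 in A/J with the second stranded column and with A/J BMS493 replicate 2 or A/J control replicate 3 or 4 left out. The average over strains called 0 of 8 with edgeR (1.37% of all genes), with 2 at an unadjusted p under 0.05, and 1 with DESeq2. Notch2 in B6 was the only member whose treatment groups did not overlap, 1 of 8 in B6 against 4.71% of all genes, and 0 of 8 in A/J against 4.87%. The median log2 difference of the 8 was -0.02 in B6 and 0.09 in A/J, against 0.0070 and -0.0019 over all genes. The difference between the strains in the treatment effect lay between -0.17 and 0.21. It was called for 0 of 8 with edgeR and with DESeq2, and for 0.00579% of all genes. An unadjusted p under 0.05 was reached by 0 of the 8.

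Counted together for strain, 3 of the 8 were called in controls, all lower in A/J, where 16.9% of all genes were called and 9.84% were called lower. With BMS493 4 of the 8 were called, 3 of them lower and 1 higher, where 20.0% of all genes were called. Of all 17276 genes 2077 were lower there, and 7.93% were called higher. The groups of 3 genes did not overlap in controls (24.3% of all genes) and those of 2 with BMS493 (19.5%). Control and BMS493 contrasts share no library, but both take their estimate of spread from the 1 fit over 16 libraries. The 3 genes called in controls were all called with BMS493 too, as were 2099 of the 2916 genes called in controls over all genes. When only the 8 libraries compared were fitted, Jag2 was not called with BMS493 (adjusted p = 0.0817). Within the libraries numbered 1 to 8 and within those numbered 9 to 16, with 2 libraries per group in each, Dll1, Jag2 and Heyl were lower in A/J at both treatments. The smallest such difference was -0.14, for Jag2 with BMS493 in the first set, where the second set gave -0.58.

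Because whole lungs were sequenced, fewer cells of a type and less RNA per cell cannot be told apart. Markers of several cell types that use the pathway differed between the strains beside Jag2, Dll1 and Heyl. The counts that follow stand beside 16.9% of all genes called in controls and 20.0% with BMS493. Of 10 endothelial markers 8 were called lower in A/J in controls (median log2 difference -0.38), among them the adhesion molecule Pecam1 at -0.38 (adjusted p = 0.00101), and all 10 with BMS493 (median -0.44). Their summed level was 1410 to 1515 CPM in B6 and 1010.2 to 1211 CPM in A/J controls, and 1306 to 1618 and 1002 to 1183 CPM with BMS493. None of the 10 was at 0. The summed level of 6 pericyte markers was 556 to 621 CPM in B6 and 443 to 575 CPM in A/J controls. Of these 4 were lower and 1 higher in A/J in controls (median -0.49). The higher one was Rgs5, a regulator of G protein signalling that marks pericytes, at 0.79 (adjusted p = 2.80e-06). With BMS493, when the sums were 544 to 630.0 CPM and 478 to 565 CPM, 3 were lower and Rgs5 was higher (median -0.42).

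Of 7 proximal epithelial markers tested 2 were called lower in A/J in controls, where 16.9% of all genes were called, and 5 with BMS493, where 20.0% were. None was called higher, and the medians were -0.60 and -0.94. The secretory cell gene Scgb3a2 was at -2.94 (adjusted p = 0.000944) and -3.10 (adjusted p = 0.000446). Summed levels of that list were 161 to 192 CPM in B6 and 98.1 to 123 CPM in A/J controls, and 155 to 355 and 101 to 145 CPM with BMS493. The 355 CPM was B6 BMS493 replicate 2, and the rest of that group lay at 155 to 239 CPM. Most of each sum came from Cldn18, a claudin of lung epithelium, named after its values were seen. It was at 115 to 141 CPM in B6 and 70.4 to 87.7 CPM in A/J controls, and at 119 to 279 and 75.0 to 120.5 CPM with BMS493. The 279 CPM was again B6 BMS493 replicate 2, with the rest of that group at 119 to 172 CPM. The secretory marker Scgb1a1 of that list was near 0 in every group. The counts of the next lists stand beside the same 16.9% of all genes in controls and 20.0% with BMS493. Of 8 arterial endothelial markers 1 was lower in controls and 2 with BMS493 (medians -0.28 and -0.32), the latter both also in the Notch lists. Of 9 airway smooth muscle markers 1 was lower and 1 higher in controls, and 3 were lower and 1 higher with BMS493 (medians -0.02 and -0.13). Of 8 distal epithelial markers 1 was lower at each treatment (medians 0.04 and -0.17). It was the surfactant gene Sftpc, at -1.79 in controls and -2.47 with BMS493. In BMS493 lungs Sftpc was at 179 to 867 CPM in B6, highest in replicate 2, and at 75.0 to 109 CPM in A/J. Lung mesenchyme, with 8 markers, had 1 lower in controls, and 1 lower and 2 higher with BMS493 (medians 0.03 and 0.10). Of 7 mesothelial markers 2 were called in controls and 5 with BMS493, in both directions (medians -0.05 and 0.02). The part of any of these cell types in the levels of Jag2, Dll1 and Heyl was not tested.

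**Figure D3:**
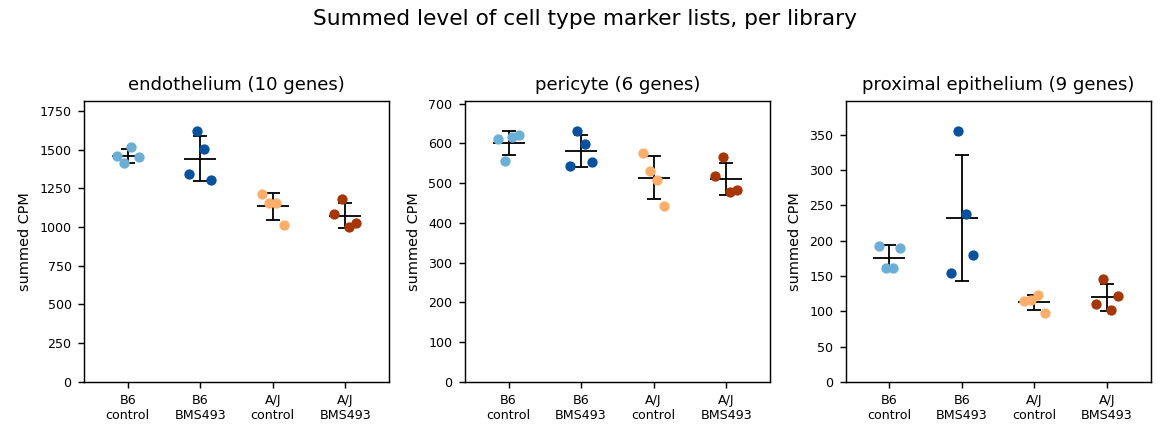
Summed CPM (y axis, starting at 0) of endothelial, pericyte and proximal epithelial marker genes in the 4 groups (x axis). Points are libraries and bars the mean ± SD over 4 libraries. Most of the proximal epithelial sum is Cldn18. The 8 A/J libraries lay at 1002 to 1211 CPM for endothelium and the 8 B6 libraries at 1306 to 1618 CPM.

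The rest of the pathway was described from lists of 57 other genes, of which 55 passed the filter. The remaining 2 were Hes5 and Hes7. In either strain 0 of the 55 were called with BMS493, where 0.423% of all genes were in B6 and 0.486% in A/J. Averaged over strains 1 of the 55 was, where 1.37% of all genes were. It was the target gene Hey2, a Hey family repressor of arterial endothelium and heart. Hey2 lies outside the rule for named genes and was picked after its values were seen. It was at 5.05 ± 0.944 and 3.12 ± 0.602 CPM in B6 control and BMS493 lungs and at 3.68 ± 0.349 and 2.79 ± 0.477 CPM in A/J (SD, n = 4 each). It fell by 0.54 on the log2 scale (SE 0.13, adjusted p = 0.0353). The call was lost in 12 of 24 alternatives. One of those was the first stranded column, with -0.34 at an adjusted p of 0.494, and the other 11 each left out 1 library, at adjusted p of up to 0.116.

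Between the strains 11 of the 55 were called in controls, 8 lower and 3 higher in A/J, where 16.9% of all genes were called. With BMS493 12 were called, 10 lower and 2 higher, where 20.0% of all genes were. Both shares are near those over all genes. Of these, 8 of the 11 were called at both treatments, where over all genes 2099 of 2916 were. The median log2 difference of the 55 was -0.07 in controls and -0.04 with BMS493. Neither Notch1 nor Notch4, the other receptors, was called in any contrast, and their strain differences were -0.11 and -0.17 in controls and -0.18 and -0.27 with BMS493.

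The largest strain difference in the list was that of Rbpj, which encodes the DNA-binding partner of all Notch receptors. Rbpj was at 145 ± 5.41 and 142 ± 10.5 CPM in B6 control and BMS493 lungs and at 58.8 ± 3.50 and 56.7 ± 3.53 CPM in A/J (SD, n = 4 each). The lowest B6 library was at 126 CPM and the highest A/J library at 62.3 CPM. The log2 difference was -1.30 in controls (SE 0.07, adjusted p = 3.99e-14) and -1.32 with BMS493 (SE 0.07, adjusted p = 2.98e-14). A processed copy of this gene, Rbpj-ps3, moved the other way. It was at 1.21 ± 0.187 and 1.37 ± 0.902 CPM in B6 and at 13.2 ± 1.28 and 14.1 ± 1.19 CPM in A/J (SD, n = 4 each). The copy shares 50-base windows with Rbpj, 10.6% of whose windows occur elsewhere, so fragments of one may have been counted for the other. Summed over Rbpj and its pseudogenes, the log2 ratio of the means was -1.02 at both treatments.

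RefSeq promoter windows on GRCm38.p6 are shown for Hey2 and for Rbpj, with its strain difference, 1 window each. Hey2 was the 1 gene of the list called for treatment, averaged over strains, where 1.37% of all genes were called. Another RefSeq window of Rbpj, which overlaps the printed one, holds 1 core. Capitals mark TGGGAA or its reverse complement TTCCCA. Hey2 (chr10:30842734-30843033, minus strand) has the core with its first base at -207 and at -3 from the start, and Rbpj (chr5:53590096-53590395, plus strand) at -149 and at -65. A longer form, GTGGGAA, which overlaps the core, occurs in 6.38% of all windows and in none of the members' windows. It is present at both Hey2 sites and in neither Rbpj window. These matches describe letters and are not evidence of binding.
Hey2: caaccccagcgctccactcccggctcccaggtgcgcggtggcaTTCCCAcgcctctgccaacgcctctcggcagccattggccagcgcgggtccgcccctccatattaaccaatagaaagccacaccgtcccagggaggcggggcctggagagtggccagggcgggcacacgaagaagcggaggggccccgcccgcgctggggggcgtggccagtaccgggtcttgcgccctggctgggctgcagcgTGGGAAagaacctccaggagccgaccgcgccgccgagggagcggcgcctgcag
Rbpj: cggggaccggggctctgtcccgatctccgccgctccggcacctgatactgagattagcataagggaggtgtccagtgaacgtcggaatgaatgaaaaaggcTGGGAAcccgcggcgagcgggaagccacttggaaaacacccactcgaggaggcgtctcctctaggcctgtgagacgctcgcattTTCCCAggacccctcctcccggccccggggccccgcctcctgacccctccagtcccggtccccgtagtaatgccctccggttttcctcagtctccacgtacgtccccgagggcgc

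Of 6 glycosyltransferases of the receptors 2 were called between the strains at each treatment, of 10 proteases and their subunits 1 at each, of 16 nuclear factors 3 in controls and 4 with BMS493, and of 13 ubiquitin ligases and other regulators 4 and 2. These counts stand beside 16.9% and 20.0% of all genes. Lfng, the Fringe glycosyltransferase that changes which ligands a receptor answers to, was lower in A/J by -0.54 in controls (adjusted p = 0.00130) and -0.55 with BMS493 (adjusted p = 0.000911). Eogt, another glycosyltransferase of the receptor, was at -0.39 and -0.44 (adjusted p = 0.00122 and 0.000296). Ncstn, a subunit of gamma-secretase, was at -0.36 and -0.45 (adjusted p = 7.54e-05 and 2.76e-06). Of the ubiquitin ligases that drive ligand uptake, Neurl1b was lower at -0.73 and -0.69 (adjusted p = 6.49e-05 and 0.000104), while Neurl1a was higher at 0.59 and 0.37 (adjusted p = 0.000155 and 0.0107). The Neurl1a call with BMS493 was lost with the second stranded column (0.29, adjusted p = 0.103). Mib1, of the same function, was called in controls at 0.21 (adjusted p = 0.0109) and not with BMS493 at 0.12 (adjusted p = 0.139). Dtx4, a Deltex ubiquitin ligase, was likewise called in controls at 0.27 (adjusted p = 0.0181) and not with BMS493 at 0.0063 (adjusted p = 0.966). That call was lost without B6 control replicate 1 (adjusted p = 0.0685) or A/J control replicate 3 (adjusted p = 0.0673). Kat2a, a histone acetyltransferase, was higher in A/J than in B6 among BMS493 lungs at 0.24 (adjusted p = 0.00574). Between the strains in controls it was not called at 0.13 (adjusted p = 0.178). For these 3 genes the difference between treatments itself was not called (adjusted p = 0.999 each). Hdac1, a histone deacetylase of repressor complexes, was lower at -0.28 and -0.31 (adjusted p = 0.000360 and 9.84e-05). Of the Hdac1 windows 35.5% also occur in another gene, chiefly Gm10093.

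Among the other target genes, Nrarp was called lower in A/J at both treatments and Hey1 with BMS493 alone. Nrarp, a target that feeds back on the receptor complex, was at -0.74 in controls (adjusted p = 0.00384) and -0.59 with BMS493 (adjusted p = 0.0196). The call with BMS493 was lost in 3 of 17 alternatives, at an adjusted p of 0.0628 without the filter on low counts, 0.0548 with B6 BMS493 replicate 2 left out and 0.0716 with A/J BMS493 replicate 1 left out. Of the Nrarp windows 77.3% also occur in another gene, chiefly Gm38287, so its counts are uncertain. Hey1, a Hey family repressor, was at -0.48 with BMS493 (SE 0.13, adjusted p = 0.00936) and not called in controls at -0.29 (SE 0.13, adjusted p = 0.119). The difference between treatments itself was not called (adjusted p = 0.999). The target list had 6 genes tested: Hes1, Heyl, Hey1, Hey2, Nrarp and Hes6, the last named only to complete the list. All 6 had a lower estimate in A/J at both treatments, with medians of -0.37 and -0.29. Whether each of them responds to Notch in these lungs was not tested. The medians over all genes were 0.0081 and 0.0032. Calls among the 6 numbered 2 in controls, where 16.9% of all genes were called, and 3 with BMS493, where 20.0% were.

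**Figure D4:**
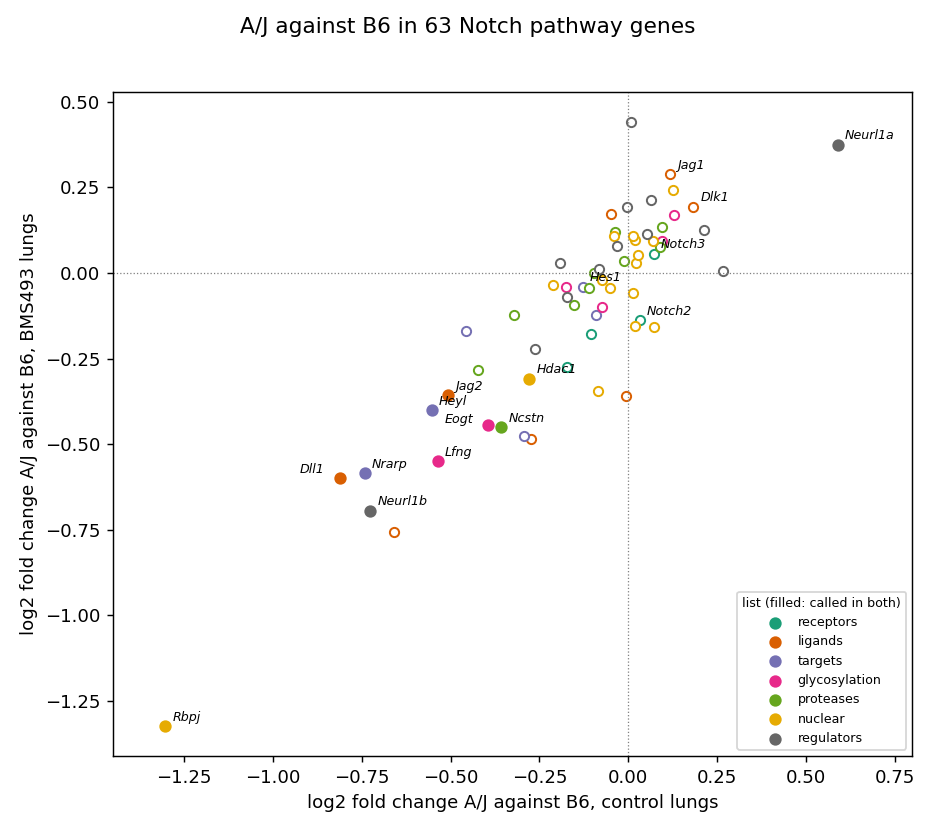
Log2 fold change of A/J against B6 in control lungs (x axis) and in BMS493 lungs (y axis) for 63 tested Notch pathway genes, coloured by role. Filled points were called at both treatments. The 2 axes share no library but come from 1 fit. Rbpj lies at -1.30 and -1.32, and Neurl1a is the filled point at upper right, at 0.59 and 0.37.

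The members were then compared among themselves over the 16 libraries after group means were removed, so that strain and treatment did not enter. Of 28 pairs, 0 passed the Benjamini-Hochberg adjustment, 3 had an unadjusted exact permutation p under 0.05, and 26 had a positive Pearson correlation. The share of positive pairs over all genes was not computed, so the 26 of 28 has nothing to stand beside. The part of cell makeup, which a library shares across all its genes, was not tested. The pair with the smallest p was Notch2 and Heyl, with r = 0.72 and rho = 0.73 (n = 16 libraries, exact permutation p = 0.00691 and 0.00698, adjusted p = 0.193 and 0.196). Without the 2 libraries farthest from the median of Notch2, A/J BMS493 replicates 2 and 3, r was 0.74.

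Genes whose level followed each member most closely over the 16 libraries, with group means removed, were searched among 14543 genes with a mean of at least 1 CPM. As the highest of many they are a description only. Notch2 was followed most closely by Specc1l (r = 0.93) and Hivep3 (r = 0.92), and Notch3 by Armcx4 and Dnmt3a (r = 0.91 each). For the ligands these were Pdlim5 with Jag1 (r = 0.88), beside an unnamed gene, ENSMUSG00000121179 (r = 0.89), Frzb (r = 0.91) and Sox17 (r = 0.90) with Jag2, and Ccdc3 (r = 0.91) and Lacc1 (r = 0.89) with Dll1. Dlk1 was followed by Csrp1 and Matn4 (r = 0.95 each). Scnn1g (r = 0.91) and Nos2 (r = 0.90) stood nearest to Hes1, and Plpp3 and Gdpd5 (r = 0.91 each) to Heyl.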

How the data were processed

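The authors deposited 1 table of raw counts per library, with 57180 genes, 1 column regardless of strand and 1 for each strand. FastQC, cutadapt, STAR and the build GRCm39 are named in the submitters' processing notes, and their versions and the annotation are not given in the sources used here. The column without strand was used. Lines that name no gene (23.1% to 28.3% of fragments) were left out. Symbols and exon lengths came from GENCODE M21, which matched 51884 identifiers holding 98.9% of the counts, and promoter windows from RefSeq (GRCm38.p6).

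With edgeR 4.0.16 in R 4.3.3, filterByExpr kept 17276 genes and removed 39904. TMM scaling and a robust quasi-likelihood fit followed, with 1 coefficient per group over 16 libraries and 12 residual degrees of freedom, two-sided, tested on simulated data. Log values used a prior count of 2. Correlations used exact permutation within groups. Shared windows were 50-base stretches of M21 transcripts. DESeq2 1.42.0 and other settings were alternatives. Tables and figures used Python 3.11.15, pandas 2.3.3, scipy 1.17.1 and matplotlib 3.10.9.

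The members, the other lists and the rules were chosen with earlier results of these data known. Named genes were the 8 members, up to 12 other listed Notch genes called in any contrast with a mean of at least 1 CPM, by smallest adjusted p, up to 2 genes of a marker list in a contrast, by smallest adjusted p, marker genes near 0, and the 2 genes most correlated with each member. Of 16 Notch genes called in any contrast, 12 were named so. Marker lists without a result in the text are not reported here.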

Additional observations from a re-analysis of the deposited data

Results flagged for a closer look

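Of the 32 combinations of member and group, 1 held a library far from the other 3. Hes1 was at 40.8 CPM in A/J BMS493 replicate 3, while the other libraries of that group lay between 45.1 and 45.5 CPM, and the gap took up 0.900 of the group's range. Chance alone flags about 1 in 20 such groups.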

How the results depend on the processing

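Calls of Dll1, Jag2 and Heyl in controls held in all 17 alternatives, and that of Heyl with BMS493 in all 17. The number of members called changed as follows. In B6 with BMS493 it went from 0 to 1 (Notch2) without the filter on low counts. For the average over strains it went from 0 to 1 with DESeq2, without the filter and with the second stranded column, each time Notch2, and lay between 0 and 1 when libraries were left out. For A/J against B6 with BMS493 it went from 4 to 2 when only the 8 libraries compared were fitted and with the second stranded column, and lay between 2 and 4 when libraries were left out. The replicate number as a block changed no call, with 0, 0, 0, 0, 3 and 4 members called in the 6 contrasts. The numbers were not taken to pair the samples, since 3 of 24 same-numbered pairs, and not all, correlated above 0.1 (range -0.15 to 0.15), so the block is given here only. Of the 16 libraries 7 correlated best with a library of their own number, a hint from the data and not from the design. None of the log2 differences that changed sign was called, before or after. With the first stranded column they were Notch3 in B6 (-0.0023), Hes1 in A/J (-0.022) and Hes1 between the strains with BMS493 (0.0022), and with the second Notch3 in A/J (-0.019). With libraries left out, the B6 treatment difference ranged from -0.075 to 0.078 for Notch3, from -0.017 to 0.14 for Dlk1 and from -0.14 to 0.021 for Hes1. In A/J it ranged from -0.028 to 0.054 for Notch3, from -0.0032 to 0.16 for Jag1, from -0.0078 to 0.24 for Dll1, from -0.0026 to 0.073 for Hes1 and from -0.14 to 0.041 for Heyl. Strain differences ranged from -0.022 to 0.083 for Notch2 in controls and from -0.12 to 0.039 for Hes1 with BMS493. The cause was not tested. Over all genes, calls for B6 treatment numbered 73 and ranged from 27 to 260 over the alternatives. For A/J treatment they numbered 84 (52 to 178), for the average 237 (165 to 487) and for the strain difference in effect 1 (1 to 12). Dlk1 was called in both strain contrasts without the filter, and in controls when only the 8 libraries compared were fitted.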
